A study of Mus musculus with 55 samples.

Results

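Cd68 is a gene on mouse chromosome 11 that lies in a dense stretch of genes, and it is described here together with its neighbours Eif4a1, Senp3, Mpdu1 and Fxr2. The 5 genes were chosen by symbol from pre-mRNA tables that list 9911 genes in CCNA-GFP cells and 10237 genes in CTCF-AID cells, and all 5 are listed in both. Cd68 was chosen because its pre-mRNA peaked about 60 min after release from mitosis, in a choice that named both tables, so its time courses in CCNA-GFP and CTCF-AID cells are a description and carry no test. The 4 neighbours were tested, and so was the effect of IAA on all 5 genes. The choice also named a question, whether the Cd68 peak follows transcription that runs on from Eif4a1, the gene just upstream on the same strand. The tables hold no value for the bases between genes, so the part of such read-through in the Cd68 value was not tested, and the time courses of the 2 genes are set side by side.

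Both cell lines are mouse ES cells derived from E14Tg2a (strain 129/Ola) and grown in serum and LIF. CCNA-GFP cells have a reporter of the cell cycle, cyclin A fused to GFP, and CTCF-AID cells, which come from a single clone, carry CTCF fused to a degron so that auxin (IAA) triggers loss of the protein. Cells were held for 4 h with the CDK1 inhibitor RO-3306 at 10 µM and for 4 h with nocodazole at 50 ng/ml, and mitotic cells were then shaken off and released, while asynchronous cells were not synchronised. In the +IAA arm, 0.5 mM IAA was present for the last 2 h of nocodazole and after release, and the −IAA arm had none. By the study's methods, asynchronous cells were treated alongside for 4 h. The CCNA-GFP table holds 19 libraries and each CTCF-AID arm holds 18, with 3 libraries of asynchronous and of mitotic cells and 2 at each time after release, except for a single CCNA-GFP library at 50 min. The times run from 20 to 120 min in steps of 10 to 30 min, and 30 min was taken in CCNA-GFP cells alone. The study describes the replicates as independent, and numbers 1 to 3 name them.

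Pre-mRNA has not yet lost its introns and is short-lived, so its level follows ongoing transcription more closely than that of mature mRNA. Transcription is low in mitosis and resumes as cells divide and enter G1. RNA polymerase normally releases its transcript after a polyadenylation signal, most often AATAAA, and when it does not stop soon after, its reads fall in the next gene downstream. Cd68 encodes a heavily glycosylated protein of lysosomes and endosomes that is best known as a marker of macrophages. Eif4a1 encodes the RNA helicase of the translation initiation complex eIF4F. Senp3 encodes a nucleolar protease that removes SUMO from proteins, Mpdu1 a protein needed to use dolichol-linked mannose in glycan assembly, and Fxr2 an RNA-binding protein of the fragile X family.

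On GRCm38 (mm10) with Gencode vM21, 4 of the genes lie on the minus strand and are met in the order Senp3, Eif4a1, Cd68, Mpdu1 by a polymerase that moves along it. Senp3 spans chr11:69673115-69682084, Eif4a1 chr11:69666936-69672423, Cd68 (ENSMUSG00000018774) chr11:69664213-69666153 and Mpdu1 chr11:69656697-69662642. Fxr2 lies on the plus strand at chr11:69632990-69653297. The annotated end of Senp3 and start of Eif4a1 are 691 bases apart, the end of Eif4a1 and start of Cd68 782 bases, and the end of Cd68 and start of Mpdu1 1570 bases. Cd68 is the shortest of the 5 genes, with 1941 bases, of which 684 (35.2%) are intronic in every annotated transcript and so belong to the pre-mRNA alone. The corresponding shares are 21.0% in Eif4a1, 59.3% in Mpdu1, 59.5% in Senp3 and 81.5% in Fxr2. On the same strand, 3 snoRNA genes lie within Eif4a1, and whether their reads enter its value is not given in the sources used here. Mpdu1 overlaps Sox15, on the other strand, by 31 bases, and the libraries were stranded.

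**Figure D1:**
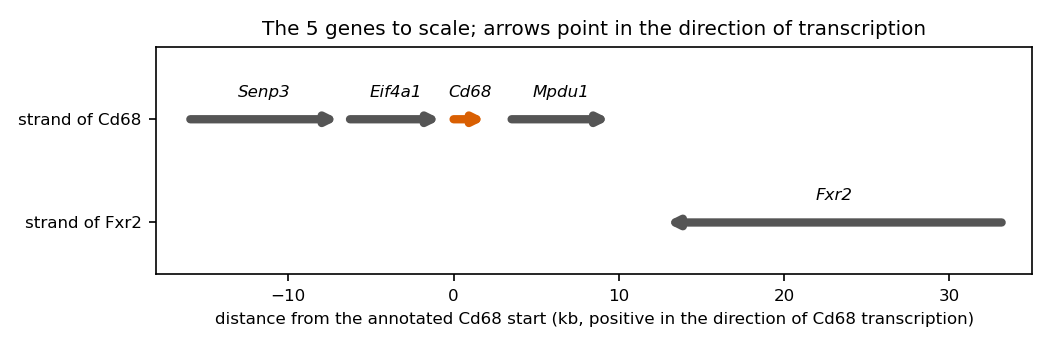
Map of the 5 genes, to scale, by distance from the annotated Cd68 start (x axis, kb, positive in the direction in which Cd68 is transcribed), with the strand of Cd68 above, that of Fxr2 below, and arrows in the direction of transcription. Senp3, Eif4a1, Cd68 and Mpdu1 follow one another on the minus strand with gaps of 691, 782 and 1570 bases, while Fxr2 runs toward them on the plus strand.

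The start of Cd68 and the end of Eif4a1 are the sequences between which any shared transcript would run, and so they are shown first. The promoter windows are from RefSeq (GRCm38.p6), from 250 bases before to 50 bases after each start, read 5′ to 3′ on the minus strand. Capitals mark the motif CCAAT, the motif known for binding AP-1, written as TGANTCA, and the E-box motif, written as CACGTG. These and the TATAAA motif were searched on both strands. The Cd68 window is chr11:69666121-69666420 and the Eif4a1 window chr11:69672374-69672673.
Cd68 promoter: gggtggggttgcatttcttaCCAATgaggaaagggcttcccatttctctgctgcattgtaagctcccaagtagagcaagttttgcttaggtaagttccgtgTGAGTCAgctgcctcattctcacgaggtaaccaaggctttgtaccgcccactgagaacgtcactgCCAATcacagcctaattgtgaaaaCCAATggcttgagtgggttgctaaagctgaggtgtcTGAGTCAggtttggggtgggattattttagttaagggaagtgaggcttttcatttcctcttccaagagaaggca
Eif4a1 promoter: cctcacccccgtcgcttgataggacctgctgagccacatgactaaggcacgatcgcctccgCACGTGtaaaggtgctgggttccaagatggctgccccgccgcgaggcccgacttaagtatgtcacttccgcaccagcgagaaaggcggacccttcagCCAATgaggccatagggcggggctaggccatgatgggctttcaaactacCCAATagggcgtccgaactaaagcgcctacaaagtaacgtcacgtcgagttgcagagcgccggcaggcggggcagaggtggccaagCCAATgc
The Cd68 window holds 3 matches to CCAAT and 2 to TGANTCA, and the Eif4a1 window 3 to CCAAT and 1 to CACGTG. No match overlaps another, and neither window holds TATAAA. Of all 32851 windows in the table, 37.4% hold CCAAT, 7.81% TGANTCA, 7.15% CACGTG and 13.6% TATAAA, on either strand. Of the Cd68 window, 267 bases lie in the 782 bases between the annotated genes. The matches are a description and not sites of binding.

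The last 30 bases of an annotated transcript of each of the 3 genes upstream of Mpdu1 (Gencode vM21) show the polyadenylation signal, in capitals, downstream of which each transcript would be cut.
Senp3-201: ctctggtcAATAAAggatcctttgaagata
Eif4a1-213: attctgAATAAAattacttggaaactgcct
Cd68-201: ggaatcAATAAAcatgaatggtacctacta
The signal starts 22 bases before the end in Senp3 and 24 bases before the end in Eif4a1 and in Cd68. The annotated Eif4a1 transcript thus ends at a complete AATAAA signal before the gap to Cd68.

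Levels are given as the deposited TPM of the pre-mRNA isoform. TPM are by definition a share of the transcripts of a library that is scaled by length, so that levels of different genes in a library can be compared. The deposited values look like TPM times a factor for each library, which would change levels between libraries but not ratios within one. No source used here states such a factor, and it was not tested. The values keep no read counts, so the counting error behind a value is unknown and precision is judged from the spread between replicates. The summed TPM of listed genes ran from 13746.9 in a mitotic library to 42575.8 in CCNA-GFP and from 17701.5 to 43370.2 in CTCF-AID, the lowest in mitosis or at 20 min and the highest at 50 or 60 min. Tests used limma on log2(TPM + 1), with the adjusted p over all genes of a table. The median gene rose by 0.79 on the log2 scale from mitosis to 60 min in CCNA-GFP and by 0.63 in each CTCF-AID arm, and was at 0.02, 0.06 and 0.06 when libraries were scaled to the same total. With that scaling, 3607 of 9911 genes were called higher at 60 min in CCNA-GFP and 3302 lower. Of 10237 genes in CTCF-AID, 4030 were called higher and 3181 lower without IAA, and 4162 and 3399 with it. The shares of all genes given below are without that scaling unless stated. Of 10 ES cell markers 9 were listed in each table, all but Sox2. Of 14 macrophage markers, Fcer1g and Laptm5 alone were listed in CCNA-GFP, where their summed level was 1.46 to 3.82 TPM in mitosis, 5.87 TPM at 50 min and 2.33 to 5.75 TPM at 60 min. Laptm5 alone was listed in CTCF-AID, at 0.261 to 1.54 TPM, and the defining macrophage genes Adgre1, Csf1r, Cd14, Lyz2, Ptprc and Spi1 were in neither table. IAA removes the CTCF protein and not its RNA, so these tables do not check the depletion.

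In CCNA-GFP cells, Cd68 pre-mRNA was low in mitosis and in asynchronous cells, was highest at 50 and 60 min, and was low again by 120 min. The mitotic libraries held 1.88, 1.56 and 2.08 TPM, and those of asynchronous cells 1.83, 1.29 and 2.73 TPM, so these groups overlap. Libraries of 20 min held 3.46 and 2.02 TPM, those of 30 min 3.94 and 5.43 TPM, and those of 40 min 10.8 and 9.07 TPM. The single library of 50 min held 27.7 TPM, and those of 60 min held 24.4 and 21.0 TPM. The 3 libraries at 50 and 60 min were thus the highest of the 19, and the pair at 40 min lay above every library of 20 and 30 min. The level came down to 7.07 and 12.8 TPM by 90 min and to 4.22 and 4.94 TPM by 120 min, and the spread at 90 min spans that at 40 min. In order of mean level, 50 and 60 min stood above 40 and 90 min, whose libraries overlap, followed by 30 and 120 min, which overlap, and by 20 min, asynchronous cells and mitosis, which also overlap. Relative to mitosis in the same replicate, the level at 60 min was 13.2 ± 0.318 times the mitotic one (SD, n = 2), and that in the library of 50 min 13.3 times. The log2 difference from mitosis at 60 min was 3.23, and 2.14 with libraries scaled to the same total. In bulk libraries, the share of cells that have left mitosis and the amount of pre-mRNA per cell cannot be told apart.

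In CTCF-AID cells Cd68 pre-mRNA was also low in mitosis, and its highest stage mean came at 50 min in both arms. Libraries at 50 min exist for replicates 1 and 3 alone, and those at 40 and 60 min for replicates 1 and 2, so the time of the highest level in a replicate depends on which stages it has. Without IAA, the mitotic libraries held 2.61, 1.27 and 2.72 TPM, those at 40 min 15.2 and 19.02 TPM, at 50 min 17.0 and 34.7 TPM and at 60 min 12.3 and 17.0 TPM. With IAA, the corresponding levels were 1.55, 1.27 and 2.63 TPM in mitosis, 17.4 and 18.02 TPM at 40 min, 23.5 and 31.8 TPM at 50 min, and 13.6 and 14.5 TPM at 60 min. Every library from 40 to 60 min lay above every mitotic library of its arm. By 120 min the level was 4.45 and 6.32 TPM without IAA and 4.10 and 5.94 TPM with it, still above the mitotic libraries. Asynchronous cells, at 1.28 to 2.92 TPM without IAA and 1.39 to 2.64 TPM with it, overlapped mitosis.

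On the log2 scale of TPM + 1, the mean of Cd68 in CTCF-AID cells was above that of mitosis at every time after release. At 40 min the log2 difference was 2.74 ± 0.21 (SE) without IAA and 2.97 ± 0.21 with it. By 50 min it was 2.91 and 3.25, and by 60 min 2.52 and 2.66. At 20 min it was 0.58 without IAA and 0.54 with it. The difference between asynchronous and mitotic cells was −0.14 without IAA and 0.05 with it, against 0.03 in CCNA-GFP cells. After scaling of libraries to the same total, Cd68 at 60 min was at 1.74 without IAA and 1.90 with it. Over all genes, a rise at 50 min was called by limma for 79.1% of all genes without IAA and 78.2% with it, at 60 min for 84.8% and 82.2%, at 90 min for 74.8% and 73.8%, and at 120 min for 69.6% and 68.2%. The log2 difference of Cd68 at 60 min stands beside a median of 0.63 over all genes in each arm. In CCNA-GFP cells the highest level of Cd68 was 10.1 to 16.3 times that in asynchronous cells of the same replicate, and in CTCF-AID cells 11 to 14.8 times.

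**Figure D2:**
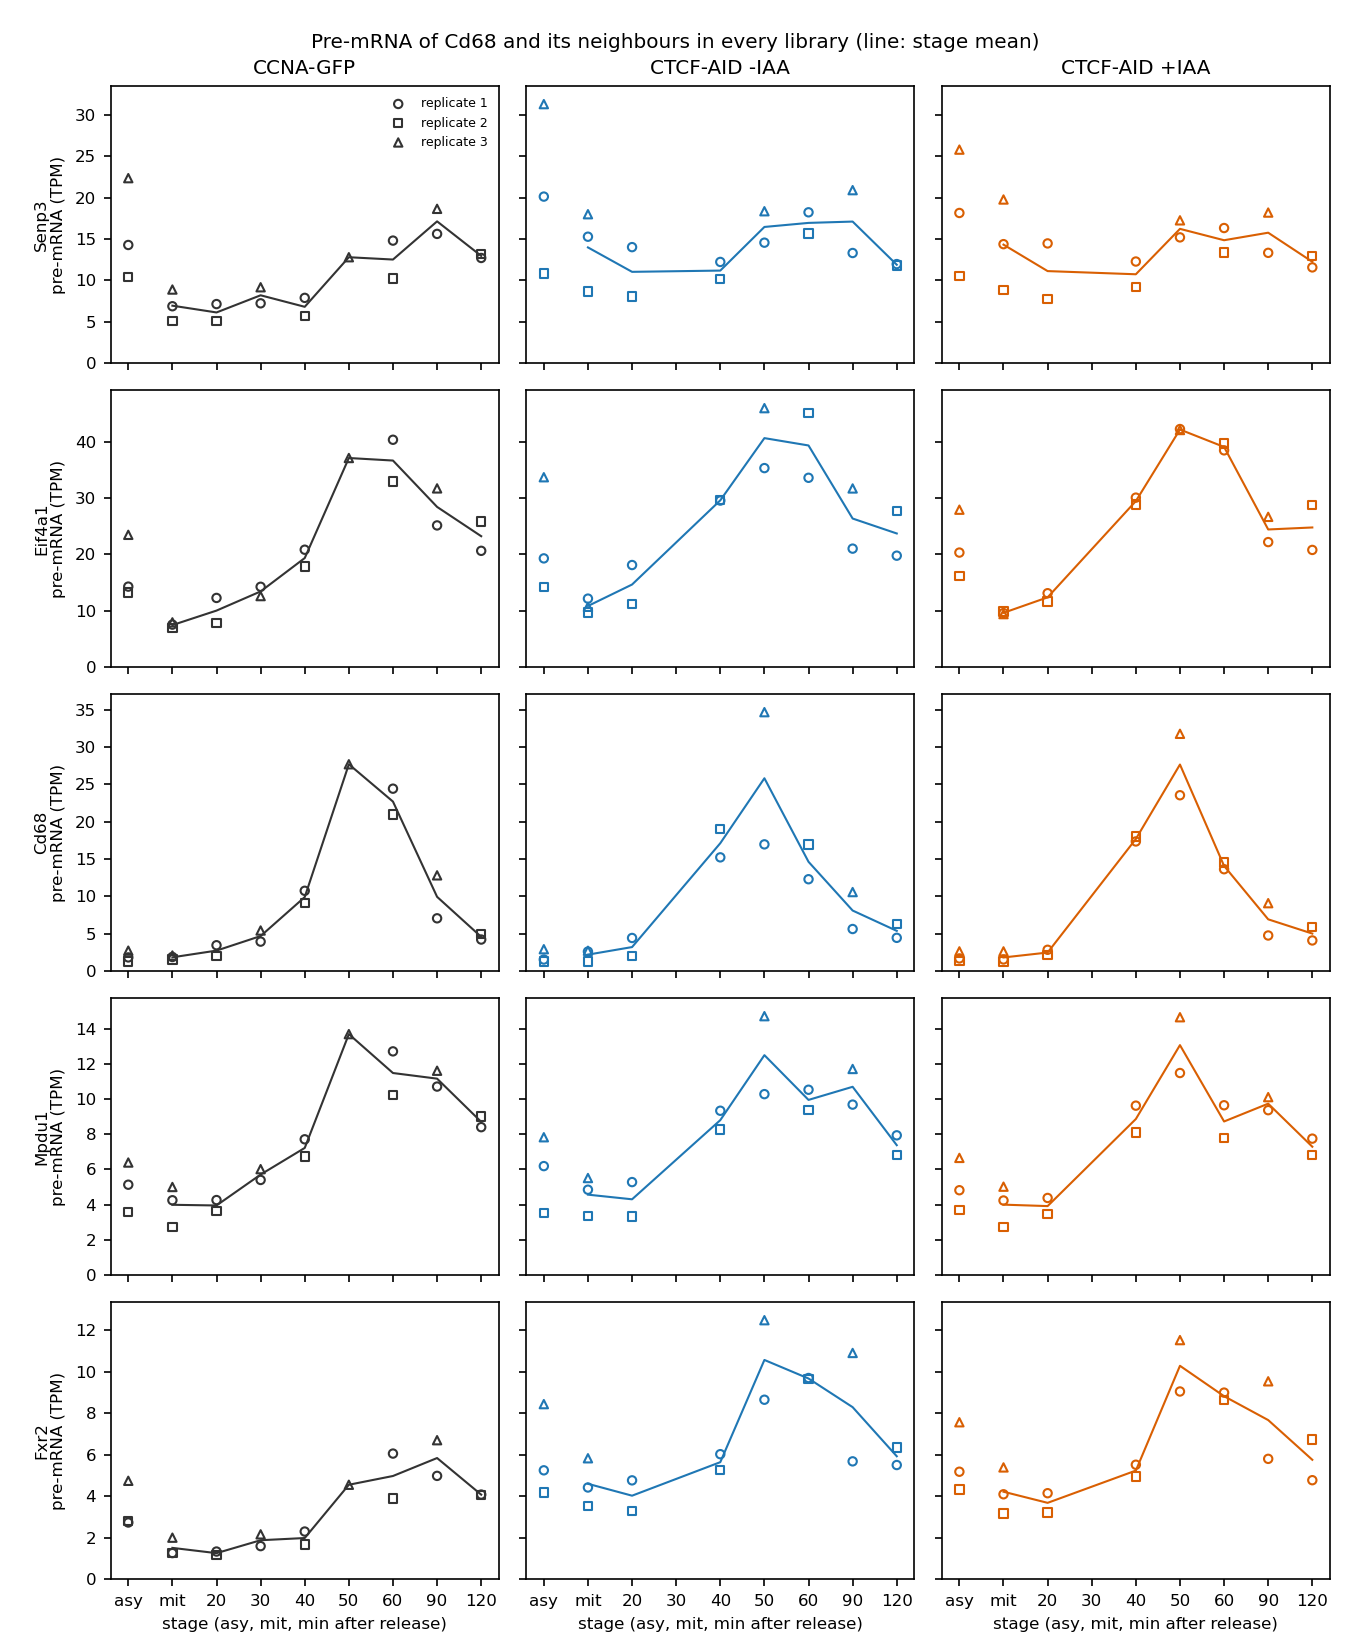
Pre-mRNA level (y axes, TPM) of the 5 genes in every library of CCNA-GFP, CTCF-AID −IAA and CTCF-AID +IAA by stage (x axis, evenly spaced categories: asy, asynchronous; mit, mitosis; then min after release), with a symbol for each replicate and a line through stage means. Cd68 peaks at 50 min in the stage means of all 3 panels, which rest on different replicates at different times. These means are 27.7, 25.8 and 27.7 TPM. Cd68 is at 4.58, 5.38 and 5.02 TPM by 120 min, above its mitotic means of 1.84, 2.20 and 1.82 TPM, while the stage means of Senp3 show no such peak.

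Eif4a1, the upstream neighbour of Cd68, rose over the same minutes, from a higher start and by a smaller fold. In CCNA-GFP its level was 7.53, 6.88 and 7.93 TPM in mitosis, 20.8 and 17.9 TPM at 40 min, 37.1 TPM in the library of 50 min and 40.3 and 33.0 TPM by 60 min, and was 20.6 and 25.8 TPM in the libraries of 120 min. All libraries from 40 min on lay above mitosis, and those at 120 min lay within the asynchronous range of 13.2 to 23.5 TPM or just above it. The log2 difference from mitosis at 40 min was 1.37 ± 0.18 (SE, limma, adjusted p = 3.63e-06), and that by 60 min was 2.26 ± 0.18 (adjusted p = 5.48e-10). At 60 min, all 4 neighbours were called higher in CCNA-GFP, where 88.3% of all genes were. At 40 min 3 of the 4 were, beside 49.3% of all genes, and Senp3 was not. With libraries scaled to the same total or without replicate 1, the call of Fxr2 at 40 min was lost.

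In CTCF-AID cells without IAA, Eif4a1 was at 12.1, 9.67 and 10.7 TPM in mitosis, 29.5 and 29.6 TPM at 40 min, 35.3 and 45.9 TPM at 50 min and 33.6 and 45.0 TPM at 60 min. With IAA it was at 9.58, 9.88 and 9.39 TPM in mitosis, 30.1 and 28.8 TPM at 40 min, 42.2 and 42.1 TPM at 50 min and 38.5 and 39.7 TPM at 60 min. At 50 and 60 min its libraries overlapped in the −IAA arm and lay between 38.5 and 42.2 TPM in the +IAA arm. The log2 difference from mitosis at 60 min was 1.88 ± 0.22 (SE) without IAA (limma, adjusted p = 4.75e-08) and 2.03 ± 0.22 with it (adjusted p = 1.26e-08). Eif4a1 was higher in asynchronous than in mitotic cells, by 1.05 on the log2 scale in CCNA-GFP (adjusted p = 1.65e-05), 0.90 without IAA (adjusted p = 0.00104) and 1.05 with IAA (adjusted p = 0.000197). Without replicate 3, the difference without IAA was 0.57 and not called (adjusted p = 0.084). Calls in that direction were made for 70.4%, 34.3% and 40.9% of all genes. The highest level of Eif4a1 after release was 1.58 to 2.83 times the asynchronous one of the same replicate in CCNA-GFP. It was 1.36 to 3.175 times without IAA and 1.51 to 2.46 times with it.

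Senp3, which lies upstream of Eif4a1, had no peak like that of Cd68. In CCNA-GFP it was at 6.86, 5.05 and 8.88 TPM in mitosis, 7.88 and 5.72 TPM at 40 min, 12.8 TPM in the single library of 50 min, 14.8 and 10.2 TPM at 60 min, 15.6 and 18.6 TPM at 90 min and 12.7 and 13.2 TPM at 120 min. Its libraries at 40 min overlapped mitosis, and those at 90 min were within the asynchronous range of 10.4 to 22.4 TPM. The log2 difference at 40 min was 0.18 (limma, adjusted p = 0.296), and that at 60 min was 0.97 (adjusted p = 1.82e-06), which became −0.26 (adjusted p = 0.032) with libraries scaled to the same total. Without IAA, CTCF-AID libraries held 15.3, 8.67 and 17.99 TPM in mitosis, 12.2 and 10.1 TPM at 40 min and 18.2 and 15.7 TPM at 60 min. With IAA they held 14.4, 8.80 and 19.8 TPM in mitosis, 12.3 and 9.19 TPM at 40 min and 16.3 and 13.4 TPM at 60 min. The groups overlap in both arms. Once libraries were scaled to the same total, Senp3 at 40 min was called lower than mitosis, by −0.37 in CCNA-GFP (adjusted p = 0.00754), −0.60 without IAA (adjusted p = 0.000268) and −0.65 with it (adjusted p = 0.000103). With that scaling 3100 of 9911 genes were called lower in CCNA-GFP. In CTCF-AID 3755 of 10237 were without IAA and 3947 with it. The log2 difference of Senp3 at 60 min was 0.56 without IAA (adjusted p = 0.00618, and 0.453 without the replicate block) and 0.35 with it (adjusted p = 0.071, not called), and −0.37 (adjusted p = 0.0137) and −0.58 (adjusted p = 0.00035) with libraries scaled to the same total.

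Mpdu1, the next gene downstream of Cd68, rose with both but by less. In CCNA-GFP it was at 4.25, 2.72 and 5.004 TPM in mitosis, 7.71 and 6.73 TPM at 40 min, 13.7 TPM in the library of 50 min and 12.7 and 10.2 TPM at 60 min, and had come down to 8.40 and 9.01 TPM by 120 min. Every library from 40 min on lay above the mitotic ones and above the asynchronous range of 3.57 to 6.39 TPM. The log2 difference at 60 min was 1.47 ± 0.14 (SE) in CCNA-GFP (limma, adjusted p = 4.37e-09), 1.15 without IAA (adjusted p = 8.43e-10) and 1.14 with IAA (adjusted p = 8.77e-10). With libraries scaled to the same total it was 0.30 in all 3 arms, and did not pass in CCNA-GFP (adjusted p = 0.0629). In CTCF-AID the levels at 60 min were 10.5 and 9.38 TPM without IAA and 9.65 and 7.80 TPM with it, against mitotic ranges of 3.34 to 5.51 TPM and 2.75 to 5.02 TPM.

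Fxr2, on the opposite strand, had the lowest mean of the 5 genes in CCNA-GFP mitosis and was near that level until 40 min. It was at 1.25, 1.26 and 2.00 TPM in mitosis, 2.29 and 1.67 TPM at 40 min, 4.55 TPM in the single library of 50 min, 6.05 and 3.89 TPM at 60 min and 4.98 and 6.70 TPM at 90 min. The libraries at 40 min overlapped mitosis and those from 50 min on did not. The log2 difference at 40 min was 0.41 (limma, adjusted p = 0.0113), and 1.40 was reached by 60 min (adjusted p = 3.52e-09). The call at 40 min was lost with libraries scaled to the same total (0.013, adjusted p = 0.871), without the replicate block (0.26, adjusted p = 0.466) and without replicate 1 (0.28, adjusted p = 0.231). In CTCF-AID it was 0.46 at 40 min without IAA (adjusted p = 0.00415) and 0.47 with IAA (adjusted p = 0.00355), values that became −0.07 and −0.02 with libraries scaled to the same total and lost their calls without the replicate block (adjusted p = 0.455 and 0.44). At 60 min it was 1.15 (adjusted p = 3.23e-08) and 1.13 (adjusted p = 3.86e-08), with libraries at 9.69 and 9.64 TPM without IAA and 8.99 and 8.64 TPM with it. In CTCF-AID 3 of the 4 neighbours were called higher than mitosis at 40 min in each arm, all but Senp3, where 63.3% of all genes were called without IAA and 58.7% with it.

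Set against Eif4a1 in the same library, the level of Cd68 was not constant. In CCNA-GFP the ratio of Cd68 TPM to Eif4a1 TPM was 0.250, 0.227 and 0.262 in mitosis, 0.516 and 0.508 at 40 min, 0.747 in the library at 50 min, 0.606 and 0.636 at 60 min, 0.281 and 0.404 at 90 min and 0.205 and 0.192 at 120 min. Asynchronous cells had ratios of 0.128, 0.0974 and 0.117, below every library of mitosis and of the time course. Cd68 thus was least abundant beside Eif4a1 in asynchronous cells and most abundant in the library at 50 min. That library is of replicate 3, which has none at 40 or 60 min, so stage and replicate cannot be told apart there.

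Without IAA, the ratio in CTCF-AID cells was 0.215, 0.131 and 0.254 in mitosis, 0.516 and 0.642 at 40 min, 0.481 and 0.755 at 50 min, 0.366 and 0.377 at 60 min, 0.225 and 0.229 at 120 min and 0.0800 to 0.0904 in asynchronous cells. With IAA it was 0.162, 0.129 and 0.281 in mitosis, 0.578 and 0.625 at 40 min, 0.558 and 0.756 at 50 min, 0.355 and 0.366 at 60 min, 0.197 and 0.207 at 120 min and 0.0833 to 0.0945 in asynchronous cells. In both arms the libraries at 40 and 50 min lay above those at 60 min, and those at 60 min above mitosis. In replicate 1, the only one with both times, the ratio was 0.516 at 40 min and 0.481 at 50 min without IAA. With IAA it was 0.578 and 0.558 there, and the higher ratios at 50 min are of replicate 3. In the increase of TPM from mitosis to 60 min in the same replicate, Cd68 gained 22.6 and 19.4 TPM in CCNA-GFP and Eif4a1 32.8 and 26.1 TPM. The gains of Senp3 there were 7.94 and 5.17 TPM and those of Mpdu1 8.46 and 7.53 TPM, below those of Cd68 and Eif4a1 in each replicate.

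**Figure D3:**
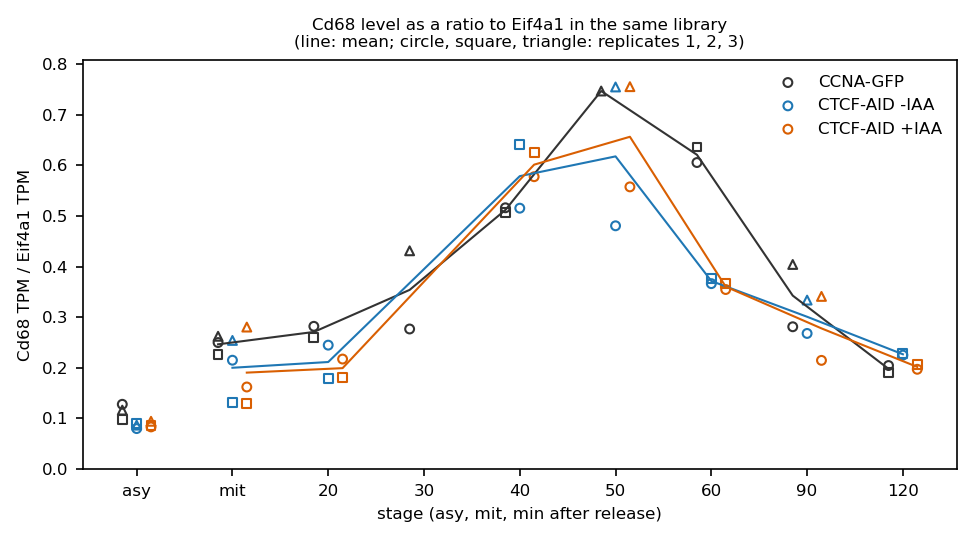
Level of Cd68 divided by that of Eif4a1 in the same library (y axis, ratio of TPM) by stage (x axis, evenly spaced categories) in the 3 arms, with a symbol for each replicate and a line through stage means. The ratio is lowest in asynchronous cells, at 0.0800 to 0.128 over all arms, and reaches 0.747 to 0.756 in the highest library of each arm, at 50 min.

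The change of Cd68 relative to Eif4a1 was then fitted after the log2 value of Eif4a1 in the same library was subtracted from every gene, which gives all genes the noise of Eif4a1. With noise so shared, limma took the spread as known without error, although the stages compared hold 2 or 3 libraries. Its SEs, p-values and calls relative to Eif4a1 thus overstate the certainty, and they are given as a description. From mitosis to 60 min, Cd68 differed from Eif4a1 by 0.64 ± 0.21 (SE) on the log2 scale without IAA, by 0.63 with IAA and by 0.97 in CCNA-GFP, all untested. With a pseudocount of 0.1 TPM these differences were 1.05, 1.09 and 1.38. Without replicate 1 or 2 the difference was 0.68 or 0.53 without IAA and 0.59 or 0.50 with it. Senp3, Mpdu1 and Fxr2 were each called lower relative to Eif4a1 in all 3 arms, by −1.29, −0.79 and −0.86 on the log2 scale in CCNA-GFP. Calls in that direction were made there for 97.7% of all genes, and for 94.2% and 95.9% in the CTCF-AID arms. Without replicate 1, which leaves a single library at 60 min in each arm, some of these calls were lost at differences of similar size. Mpdu1 lost its call in all 3 arms, at −0.66 in CCNA-GFP, −0.96 without IAA and −0.93 with it. Fxr2 lost its call in both CTCF-AID arms, at −1.02 without IAA and −0.94 with it.

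From 60 to 120 min, the decrease of Cd68 was larger than that of Eif4a1 in each arm. The log2 difference of Cd68 was −1.29 without IAA, −1.34 with IAA and −2.09 in CCNA-GFP, untested. That of Eif4a1 was −0.71 (limma, adjusted p = 0.0148), −0.65 (adjusted p = 0.0242) and −0.64 (adjusted p = 0.0114). All 4 neighbours were called lower without IAA, and Eif4a1 and Fxr2 with it, beside 53.1% and 50.8% of all genes, and in CCNA-GFP Eif4a1 alone of the 4, beside 28.5%. The calls of Eif4a1 were lost without the replicate block, at adjusted p of 0.0531 without IAA, 0.0747 with it and 0.0916 in CCNA-GFP, and without replicate 1, at log2 differences of −0.68 (adjusted p = 0.221), −0.45 (adjusted p = 0.421) and −0.34 (adjusted p = 0.391). Without the block, the calls of Fxr2 (adjusted p = 0.0944 without IAA and 0.143 with it), Mpdu1 (0.271) and Senp3 (0.379) were lost as well. Without replicate 1, a single library was left at 60 and at 120 min in each arm. The calls of Mpdu1 (−0.41) and Senp3 (−0.38) without IAA and of Fxr2 (−0.32) with it were then lost. Without replicate 3 that of Senp3 without IAA was, at −0.47 (limma, adjusted p = 0.0663). With libraries scaled to the same total, Eif4a1 changed by −0.32 (adjusted p = 0.166) and −0.27 (adjusted p = 0.239) in the CTCF-AID arms, Mpdu1 by −0.02 (adjusted p = 0.882) and Senp3 by −0.10 (adjusted p = 0.584) without IAA, and Cd68 by −0.92 and −0.98. Relative to Eif4a1, Cd68 changed by −0.58 without IAA, by −0.69 with IAA and by −1.45 in CCNA-GFP. Relative to Eif4a1, Senp3 changed by 0.70 in CCNA-GFP and was called, in the fit whose p-values overstate the certainty. A rise was called there for 56.6% of all genes. Without replicate 1 this change of Senp3 was 0.68 and was not called.

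From 40 to 60 min, Cd68 moved in opposite directions in the cell lines. In CCNA-GFP, replicate 1 had 10.8 TPM of Cd68 and then 24.4 TPM, and replicate 2 had 9.07 TPM and then 21.0 TPM. Without IAA it went from 15.2 to 12.3 TPM and from 19.02 to 17.0 TPM, and with IAA from 17.4 to 13.6 TPM and from 18.02 to 14.5 TPM. The level thus was higher at 60 than at 40 min in both CCNA-GFP replicates and lower in all 4 CTCF-AID pairs. The cell lines were fitted separately and were not tested against each other. Within CTCF-AID, the log2 difference of Cd68 from 40 to 60 min was −0.22 without IAA and −0.31 with IAA, and −0.54 and −0.67 with libraries scaled to the same total. In CCNA-GFP it was 1.12, and 0.41 with libraries so scaled.

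Eif4a1 had no fall over this step in any arm. Its log2 difference was 0.38 without IAA (limma, adjusted p = 0.183), 0.40 with IAA (adjusted p = 0.164) and 0.88 in CCNA-GFP, where all 4 neighbours were called higher, beside 79.5% of all genes. With libraries scaled to the same total, Fxr2 alone was still called there, at 0.41 (adjusted p = 0.00192), Eif4a1 was at 0.16 (adjusted p = 0.433) and Mpdu1 at −0.08. Of all 9911 genes, 1723 were called higher with that scaling and 1111 lower. In CTCF-AID, 2 of the 4 neighbours were called higher without IAA, Fxr2 at 0.69 (adjusted p = 0.0005) and Senp3 at 0.56 (adjusted p = 0.0182), beside 52.2% of all genes, and Fxr2 alone with IAA, beside 55.6%. All 3 calls were lost without the replicate block. Scaled to the same library total, Senp3 was at 0.23 without IAA (adjusted p = 0.203), and Mpdu1 was called lower with IAA (−0.37, adjusted p = 0.0167). With IAA and that scaling, 1424 of 10237 genes were called lower and 2383 higher. Relative to Eif4a1, Cd68 changed by −0.61 without IAA, by −0.71 with IAA and by 0.23 in CCNA-GFP. Replicate 1 is the only CTCF-AID series with libraries at 40, 50 and 60 min. There Cd68 went from 15.2 to 17.0 to 12.3 TPM without IAA and from 17.4 to 23.5 to 13.6 TPM with it. Eif4a1 went from 29.5 to 35.3 to 33.6 TPM and from 30.1 to 42.2 to 38.5 TPM, so between 50 and 60 min Cd68 lost more of its level than Eif4a1 in both arms of that replicate.

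**Figure D4:**
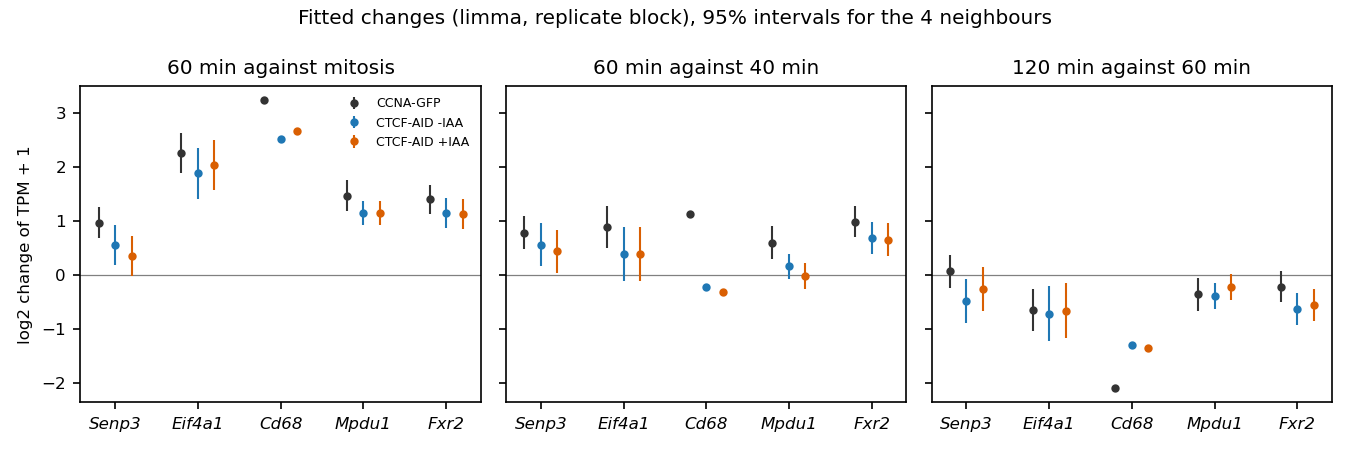
Log2 differences (y axis, log2 of TPM + 1, with 95% intervals for the 4 neighbours and none for Cd68, which was not tested) of the 5 genes from mitosis to 60 min, from 40 to 60 min and from 60 to 120 min in the 3 arms. Cd68 has the largest rise from mitosis and the largest fall after 60 min among the 5 genes in each arm, and between 40 and 60 min lies at 1.12 in CCNA-GFP but at −0.22 and −0.31 in CTCF-AID.

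CTCF depletion was compared between the CTCF-AID arms at each of 8 stages, to see whether the 5 genes depend on CTCF. None of the 40 comparisons passed limma (adjusted p under 0.1 with a log2 difference over 0.2 in size), and none had an unadjusted p under 0.05, the smallest being 0.471. The log2 differences (+IAA minus −IAA) ran from −0.22 to 0.16, and their 95% intervals reached from −1.02 to 0.90. For Cd68 at 60 min, with 12.3 and 17.0 TPM without IAA and 13.6 and 14.5 TPM with it, the difference was −0.04 with an interval of −0.78 to 0.70. Over all genes, calls were made for 0.283% (50 min), 0.225% (60 min), 0.733% (90 min), 0.586% (120 min) and 1.01% (asynchronous cells), and for 0.0% in mitosis and at the stages of 20 and 40 min. The study itself, with DESeq2 on counts, reported genes that respond to CTCF depletion early after release. A share of 0.0% here thus does not show that no gene responds. With the replicate block in the fit, calls were made for 0.987% (50 min), 1.01% (60 min), 1.71% (90 min), 1.43% (120 min), 2.43% (asynchronous cells) and 0.0195% (40 min) of all genes. Under that fit 0 of the 40 comparisons were called and 0 had an unadjusted p under 0.05 (limma, smallest 0.0976), with 95% intervals from −0.70 to 0.64 over all of them and from −0.51 to 0.44 for Cd68 at 60 min. The change from mitosis did not pass a test of its difference between arms for any of the 5 genes at any stage, with 35 log2 values from −0.20 to 0.34 and a smallest unadjusted p of 0.132 (limma). Over all genes, calls of such a difference (adjusted p under 0.05) ranged from 0.0% at 20 min to 0.557% at 90 min, with 0.156% at 60 min.

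**Figure D5:**
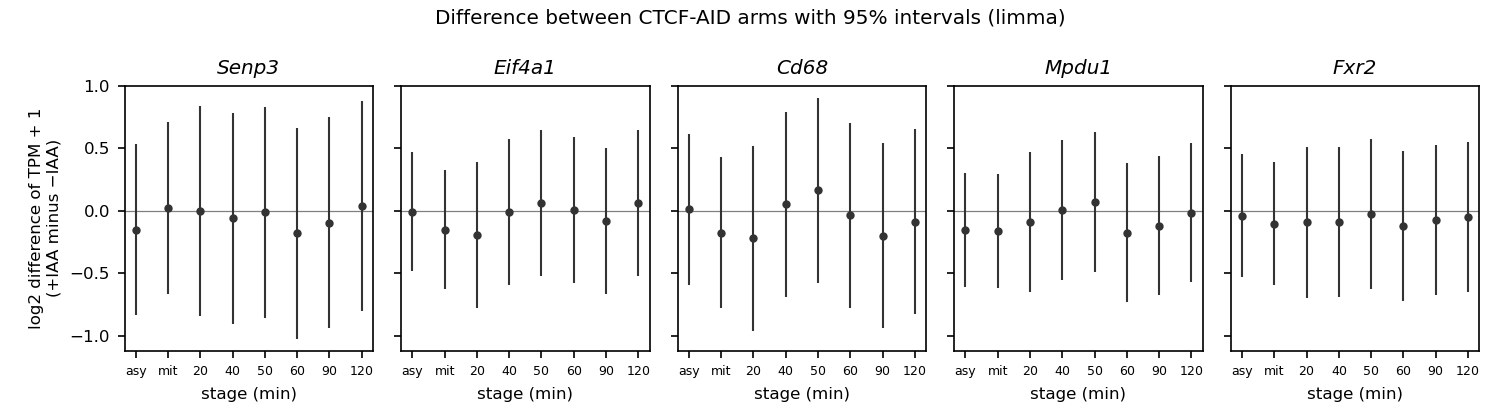
Log2 difference between CTCF-AID cells with and without IAA (y axis, +IAA minus −IAA, log2 of TPM + 1, with 95% intervals) for the 5 genes at each stage (x axis). All values lie between −0.22 and 0.16 and every interval spans 0.

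The genes around these 5 were called at about the rate of all genes. Of 10 other genes of the stretch, 7 were listed in CCNA-GFP and 8 in CTCF-AID, and 6, 7 and 7 of them were called higher at 60 min than in mitosis in CCNA-GFP, without IAA and with IAA, with none lower, beside 88.3%, 84.8% and 82.2% of all genes. Sox15, a transcription factor gene that overlaps the end of Mpdu1, went from a mean of 0.767 to 3.41 TPM in CCNA-GFP (log2 difference 1.33, limma, adjusted p = 2.17e-07), from 1.35 to 5.22 TPM without IAA and from 0.922 to 5.44 TPM with it. Tnfsf13, which encodes the cytokine APRIL and lies upstream of Senp3, was not called in any arm, at means of 0.508 and 0.614 TPM in CCNA-GFP (log2 difference 0.25, adjusted p = 0.0939). Its means without IAA were 0.68 and 0.508 TPM and with IAA 0.863 and 0.341 TPM.

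To show how common such steps between neighbours are, pairs of adjacent listed genes on the same strand were ranked. All pairs with a gap of at most 2 kb were used. The value ranked was the log2 change of stage means from mitosis to 60 min, that of the downstream gene minus that of the upstream gene. From Eif4a1 to Cd68 the step was 0.91 in CCNA-GFP, above 93.4% of 499 pairs, and 0.55 and 0.53 in CTCF-AID without and with IAA, above 84.4% and 83.1% of 520 pairs. From Senp3 to Eif4a1 it was 1.38, 1.45 and 1.81, which ranked 6, 7 and 4 from the top. From Cd68 to Mpdu1 it was −1.72, the lowest of all 499 pairs in CCNA-GFP, and −1.31 and −1.47, ranked 515 and 518 of 520, in CTCF-AID. The median pair had a step of −0.07, −0.03 and −0.04. Along the strand the rise thus steps up sharply at Eif4a1, up again at Cd68 and down at Mpdu1. These ranks include Cd68 values that served to choose it, and are a description.

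Cd68 was compared with other genes over the 25 stage means of the 3 arms, each arm centred on its own mean. Its 4 neighbours ranked 1077 to 5761 of 6603 genes in likeness. Pearson's r of log2(TPM + 1) with Cd68, among 6603 other genes whose mean reached 1 TPM in each table, was 0.994 for Gtf2f1 (a subunit of the general transcription factor TFIIF, chromosome 17), 0.992 for Esco2 (an acetyltransferase of cohesin, chromosome 14), 0.990 for Nptx2 (a neuronal pentraxin, chromosome 5), 0.989 for Slbp (which binds the stem-loop of histone mRNAs, chromosome 5) and 0.989 for Pnpla2 (a triglyceride lipase, chromosome 7). Mpdu1 had r = 0.90 and ranked 1077, Eif4a1 0.869 and ranked 1537, Fxr2 0.692 and ranked 3614 and Senp3 0.196 and ranked 5761. The 5 genes were picked as the highest of 6603, so nearly any 4 given genes would lie below them. The stage means share libraries between genes and hold the rise that most genes have in common, so the values are a description. Slbp went from a mean of 1.62 TPM in mitosis to 15.3 TPM at 50 min and 4.78 TPM at 120 min in CCNA-GFP, and Gtf2f1 from 1.58 to 12.3 to 3.55 TPM, with asynchronous means of 2.34 and 1.59 TPM. With single libraries in place of stage means, 2 of these 5, Gtf2f1 and Slbp, remained among the 5 most alike. Nptx2 then ranked 13, Pnpla2 22, Esco2 220 (r = 0.937) and Eif4a1 1579.

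In TPM as deposited, the functional partners of the 5 genes mostly rose from mitosis to 60 min as well, as most genes did. With libraries scaled to the same total, 3607 of 9911 genes were called higher in CCNA-GFP and 3302 lower. Values of the lists with that scaling are not given here. The lysosome list holds genes of lysosomal proteins and the transcription factor genes Tfeb and Tfe3. Of its 23 genes listed in CCNA-GFP besides Cd68, 21 were called higher and none lower, beside 88.3% of all genes called higher. Their median log2 difference was 1.28, beside 0.79 over all genes. Without IAA 20 of 24 were higher, beside 84.8%, with a median of 1.08, and with IAA 21 were higher, beside 82.2%, and Glb1 lower (−0.25, limma, adjusted p = 0.0118), with a median of 1.14. From 60 to 120 min in CCNA-GFP, 9 of the 23 fell and 3 rose, beside 28.5% and 9.6% of all genes. Gla, which encodes alpha-galactosidase, rose by 2.14 on the log2 scale to 60 min and then fell by 1.10. Npc2, which carries cholesterol out of lysosomes, rose by 2.05 and fell by 0.77. Hexa, which encodes a subunit of beta-hexosaminidase, and Ctsz, which encodes cathepsin Z, rose from 60 to 120 min, by 0.74 (limma, adjusted p = 0.00037) and 0.53 (adjusted p = 0.00136).

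The eIF4F list holds genes of the complex, its regulators and related factors such as Eif4a3. Of its 11 listed genes besides Eif4a1, 10 were called higher at 60 min and Eif4g3 lower in CCNA-GFP (−0.32 on the log2 scale), with a median of 1.24. Of all genes 88.3% were called higher. In CTCF-AID 9 were higher and Eif4g3 again lower in each arm, at −0.77 and −0.86, beside 84.8% and 82.2% of all genes called higher, with medians of 0.84 without IAA and 0.71 with it. Of 12 genes of the SUMO pathway besides Senp3, 10, 9 and 9 were called higher in the 3 arms, beside the same shares of all genes, with medians of 0.81, 0.62 and 0.53. Senp6 was called lower with IAA (−0.25, limma, adjusted p = 0.0151), and Senp2, a related protease, rose by 1.57 in CCNA-GFP where Senp3 had 0.97. Of 17 listed genes of dolichol-linked glycan assembly besides Mpdu1, 16, 14 and 13 were higher, again beside 88.3%, 84.8% and 82.2% of all genes, with medians of 0.77, 0.46 and 0.45, and the mannosyltransferase gene Alg2 rose by 1.49 in CCNA-GFP. The other fragile X family genes, Fmr1 and Fxr1, were called higher in all 3 arms, as most genes were, by 2.07 and 0.84 in CCNA-GFP. Over all genes the medians were 0.79, 0.63 and 0.63, and the lists were not tested against other genes.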

How the data were processed

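RNA-seq of 19 CCNA-GFP and 36 CTCF-AID libraries was used. By the study's methods, libraries were ribo-depleted, stranded and paired-end, and the authors mapped reads to mm10 (STAR) and estimated abundances by RSEM, with Gencode vM12 extended by one unspliced isoform per gene. The authors deposited TPM of that isoform for genes above 0.5 TPM in asynchronous cells or at least 2 post-mitotic samples. No counts are held, so depth is unknown. The values look like rounded TPM times a factor for each library, which no source used here states and which was not tested, and such a factor would change levels between libraries but not ratios within one. Headers of asynchronous CTCF-AID columns are garbled, and their stage was read from the column names of the study's supplementary dataset.

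Fits used limma 3.58.1 in R 4.3.3 on log2(TPM + 1), with eBayes trend and Benjamini-Hochberg adjustment over all genes of a table. Stages were compared with replicate blocks (adjusted p under 0.05), and IAA without blocks (adjusted p under 0.1, log2 difference over 0.2 in size). Deviations of same-numbered libraries had r over 0.1 in 41 of 41 cases in CCNA-GFP (median 0.555) and 182 of 182 in CTCF-AID (median 0.523), so the numbers pair libraries. No replicates were copies of each other (Spearman's rho 0.918 to 0.984). In simulated data, genes were flat over the stages but for 200 that changed at 60 min, and replicate effects had a set size. Most genes rise in the real data, so the recovered shares are not the power of the tests above. A log2 change of 1 was recovered for 80.5% of changed genes in CCNA-GFP at 60 min, 88.5% without IAA and 87.0% for IAA at 60 min. One of 0.5 was recovered for 5.5%, 38.0% and 29.5%. False calls made up 1.23%, 8.76% and 5.43% of the calls at a change of 1, and 0.0%, 2.56% and 4.84% at 0.5.

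The genes, the partner lists and the tests were chosen with earlier results of these data known, so the Cd68 peak in CTCF-AID is not independent support for that in CCNA-GFP. Changes of Cd68 with time in CTCF-AID, planned as tests, are given as values, since the choice of Cd68 for its peak was not limited to one table. Genes named are the 5 chosen ones, those next to them, the 5 most like Cd68, and up to 4 with the largest changes in each list. Alternatives were a pseudocount of 0.1, a minimum mean of 1 TPM, libraries scaled to the same total, the block left out or added, other gap limits and each replicate left out. Python 3.11.15, numpy 2.4.6, pandas 2.3.3 and matplotlib 3.10.9 were used otherwise.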

Additional observations from a re-analysis of the deposited data

Results flagged for a closer look

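The change of Cd68 pre-mRNA from 40 to 60 min went in opposite directions in the cell lines, in both replicates (1 and 2) that have libraries at these times. On the log2 scale of TPM + 1 it was 1.11 in replicate 1 and 1.13 in replicate 2 of CCNA-GFP, −0.287 and −0.156 in those of CTCF-AID without IAA, and −0.327 and −0.292 in those with IAA. With libraries scaled to the same total, the fitted change was 0.41 in CCNA-GFP, −0.54 without IAA and −0.67 with it. The difference between cell lines was not tested, since their tables were fitted separately.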

How the results depend on the processing

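Of 892 values recomputed under another setting, 763 were taken as unchanged, by a rule for each kind of value. Tested changes kept their direction and their side of the threshold, and untested changes and ratios stayed within the spread between replicates. Counts and ranks stayed within a set factor of the main value, and shares of pairs within an interval around it. Causes of the other changes were not tested. With a pseudocount of 0.1, Cd68 relative to Eif4a1 was at 1.05 and 1.09 (without and with IAA) at 60 min and changed by −0.70 and −0.82 to 120 min, and Cd68 itself was at 3.22 at 60 min with IAA and changed by −1.43 to 120 min without it. Without the replicate block, Cd68 at 60 min with IAA was at 2.45 from mitosis, 0 rather than 9 of 16 changes of the neighbours from 40 to 60 and 60 to 120 min were called in CTCF-AID (limma, 5 at an unadjusted p under 0.05), and Senp3 at 40 min in CCNA-GFP was −0.010 from mitosis. Over all 10237 genes without IAA, leaving out the block took calls from 5595 to 2280 (40 to 60 min) and from 6179 to 3664 (60 to 120 min). With IAA it took them from 5976 to 3169 and from 5975 to 3672. With the replicate block added, IAA again gave 0 calls in 40, and calls over all genes at 60 min went from 23 to 103. With libraries scaled to the same total, Cd68 was at 1.74 and 1.90 at 60 min without and with IAA, at −0.54 and −0.67 from 40 to 60 min and at −0.92 and −0.98 from 60 to 120 min, and at 0.80 relative to Eif4a1 at 60 min with IAA, and 2 rather than 5 of 8 changes from 40 to 60 and 60 to 120 min were called in CCNA-GFP and 5 rather than 9 of 16 in CTCF-AID. Over all 9911 genes in CCNA-GFP, calls went from 7898 to 2834 (40 to 60 min) and from 3775 to 4568 (60 to 120 min). Of 10237 genes without IAA, they went from 5595 to 3392 and from 6179 to 5337. With IAA they went from 5976 to 3807 and from 5975 to 5513. The same scaling reversed Cd68 in asynchronous cells against mitosis (−0.40 in CCNA-GFP, −0.11 with IAA), Fxr2 at 40 min (−0.075 without IAA, −0.024 with it), Mpdu1 in asynchronous CCNA-GFP cells (−0.22), from 40 to 60 min in CCNA-GFP (−0.078) and without IAA (−0.15), and from 60 to 120 min with IAA (0.13), and Senp3 at 40 min in CCNA-GFP (−0.37), at 60 min (−0.26, −0.37 and −0.58 in the 3 arms) and from 60 to 120 min with IAA (0.11).

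With each replicate left out in turn, Cd68 relative to Eif4a1 ran from 0.53 to 0.68 at 60 min against mitosis without IAA and 0.50 to 0.74 with it, from −0.61 to −0.55 and −0.71 to −0.67 from 60 to 120 min, and from −0.74 to −0.67 from 40 to 60 min with IAA. Cd68 itself ran from −0.33 to −0.29 from 40 to 60 min with IAA, from −0.21 to 0.14 for IAA at 60 min, and from −0.094 to 0.12 in asynchronous CCNA-GFP cells and −0.25 to 0.043 in asynchronous −IAA cells against mitosis. Without replicate 1 or 2, a single library was left at 40, 60 and 120 min in each arm. Calls in those fits are not set beside all genes. Without replicate 3, 8 of 16 changes of the neighbours were called in CTCF-AID (limma, 40 to 60 and 60 to 120 min). Calls over all 10237 genes were then 5326 and 6002 without IAA and 5721 and 5788 with it. Relative to Eif4a1, where p-values overstate the certainty, 10 of 27 were called. Over all genes, 9571 of 9910 were then called from mitosis to 60 min in CCNA-GFP, and 9452 and 9670 of 10236 in CTCF-AID. Calls of the neighbours ran from 4 to 10 of 16 for CTCF-AID from 40 to 60 and 60 to 120 min, and from 4 to 10 of 27 relative to Eif4a1, the lowest both without replicate 1. Ranges that crossed 0 were, for Eif4a1 under IAA at 60 min, −0.18 to 0.19; for Fxr2 in CCNA-GFP from 60 to 120 min, −0.47 to 0.051; and for Mpdu1 from 40 to 60 min with IAA, −0.049 to 0.0029. Those of Senp3 were −0.0076 to 0.36 relative to Eif4a1 from 40 to 60 min without IAA, −0.21 to 0.34 in CCNA-GFP from 60 to 120 min, and −0.21 to 0.31 without IAA and −0.22 to 0.10 with it at 40 min against mitosis.

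The ratio of Cd68 to Eif4a1 from TPM + 1 was 0.336 in CCNA-GFP mitosis, 0.2685 in mitosis without IAA, and 0.388 and 0.376 at 60 min without and with IAA. Single libraries in place of stage means left 2 of 5 genes most like Cd68 in place. TPM without counts leave the error of low values, such as Cd68 in mitosis, unknown beyond the spread of 2 or 3 libraries.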
